A study of Mus musculus with 3 samples.

Results

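The 9 genes described here are signalling components and targets of the interferon response: Stat2, Irf9, Irf7, Ifit1, Ifit2, Ifit3, Isg15, Irf1 and Socs1. They were chosen by name and found by Ensembl ID in the matrices of whole mouse cornea, where 30406 genes are common to all 3 libraries. The members and the lists of other genes below were chosen with earlier results of these data known, so their counts are descriptions. Nuclei were isolated from frozen corneas of 5 pooled mice per library at 7 weeks of age and sequenced with a droplet 3' method. One library is labelled wild type and untreated (WT), the next Aire knockout and untreated (KO), and the last Aire knockout with 14 days of phosphate-buffered saline (KO_PBS). The Aire protein lets thymic cells display antigens of other tissues, and its loss in mice brings autoimmunity that includes dry eye. The series text instead gives 6 weeks of age and day 7 of treatment, and a lacripep arm it names was not analysed here. The labels give no strain, allele or sex. With 1 library per group, no difference between libraries has a replicate check, no test was made, and every interval is an exact 95% Poisson or conditional interval that covers counting error only.

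Interferons reach their target genes by separate routes. Type I and type III interferons lead to a complex called ISGF3, which holds STAT2 and IRF9 and binds the interferon-stimulated response element (ISRE). Interferon gamma, the type II interferon, acts mainly through the gamma-activated site (GAS). Irf1 and Socs1 are classical early targets of the type II route, while the Ifit genes, Isg15 and Irf7 are classical targets of ISGF3, and the sets overlap in many cells.

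The sequences before the start sites show where these elements can be read in the members. RefSeq windows (GRCm38.p6) of 300 bases, 250 before to 50 after a start, were found for 9 of 9 members, 12 windows in all. The ISRE was searched as GAAANNGAAA and its reverse TTTCNNTTTC, and the GAS as TTCNNNGAA, which is its own reverse. Of 32817 windows of all genes, 3.43% held the ISRE letters and 8.29% the GAS letters. The 250 bases before the start are printed for 7 members, 5′ to 3′ on the gene's strand, because they hold the matches, which stand in capitals.
Ifit1, chr19:34640639-34640888, plus strand: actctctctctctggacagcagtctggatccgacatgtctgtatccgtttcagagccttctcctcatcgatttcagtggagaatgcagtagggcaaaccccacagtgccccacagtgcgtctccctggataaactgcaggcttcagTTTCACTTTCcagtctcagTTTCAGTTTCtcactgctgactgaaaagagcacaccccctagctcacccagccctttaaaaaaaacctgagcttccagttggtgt
Ifit3, chr19:34583279-34583528, plus strand: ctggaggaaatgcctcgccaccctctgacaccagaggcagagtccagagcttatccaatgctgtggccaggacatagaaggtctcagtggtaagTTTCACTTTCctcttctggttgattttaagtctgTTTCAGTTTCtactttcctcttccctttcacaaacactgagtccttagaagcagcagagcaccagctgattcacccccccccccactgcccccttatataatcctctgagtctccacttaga
Isg15, chr4:156200819-156201068, minus strand: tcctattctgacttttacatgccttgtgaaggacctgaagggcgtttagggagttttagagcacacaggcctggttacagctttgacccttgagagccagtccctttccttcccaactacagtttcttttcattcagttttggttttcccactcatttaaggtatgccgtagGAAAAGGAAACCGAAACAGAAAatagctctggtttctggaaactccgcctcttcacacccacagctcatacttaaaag
Stat2, chr10:128270248-128270497, plus strand: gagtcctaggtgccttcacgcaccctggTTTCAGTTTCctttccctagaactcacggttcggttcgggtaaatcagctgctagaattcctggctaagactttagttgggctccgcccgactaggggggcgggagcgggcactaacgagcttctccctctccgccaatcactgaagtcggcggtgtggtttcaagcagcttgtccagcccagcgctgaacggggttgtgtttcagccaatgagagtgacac
Socs1, chr16:10785537-10785786, minus strand: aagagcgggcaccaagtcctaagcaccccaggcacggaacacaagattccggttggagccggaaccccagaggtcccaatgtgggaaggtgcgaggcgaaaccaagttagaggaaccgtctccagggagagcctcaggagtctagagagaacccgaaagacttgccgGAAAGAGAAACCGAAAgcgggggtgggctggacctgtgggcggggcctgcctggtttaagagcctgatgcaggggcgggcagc
Irf1, chr11:53769764-53770013, plus strand: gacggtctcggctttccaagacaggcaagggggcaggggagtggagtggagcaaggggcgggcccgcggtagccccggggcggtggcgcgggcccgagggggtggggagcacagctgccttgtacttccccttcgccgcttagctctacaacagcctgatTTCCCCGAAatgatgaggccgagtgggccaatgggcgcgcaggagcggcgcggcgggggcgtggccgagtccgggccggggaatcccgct
Ifit2, chr19:34550444-34550693, plus strand: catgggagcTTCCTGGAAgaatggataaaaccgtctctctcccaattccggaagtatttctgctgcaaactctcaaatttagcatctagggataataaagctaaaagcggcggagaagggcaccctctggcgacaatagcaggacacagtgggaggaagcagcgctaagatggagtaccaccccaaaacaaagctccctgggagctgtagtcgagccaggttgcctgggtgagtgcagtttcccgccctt
Ifit1 and Ifit3 shared both of their ISRE words, TTTCACTTTC and TTTCAGTTTC. In Ifit1 these began 104 and 85 bases before the start, and in Ifit3 156 and 122 bases before it. Stat2 held TTTCAGTTTC as well, 222 bases before its start. Isg15 held 3 overlapping ISRE words from 78 bases before the start. Socs1, set among the type II members, held 2 overlapping ISRE words, GAAAGAGAAA and GAAACCGAAA, and the second of them was also in Isg15. Irf1 held the GAS word TTCCCCGAA 90 bases before the start of 1 of its 2 windows. Ifit2 held a GAS word, TTCCTGGAA, 241 bases before the start of 1 of its 2 windows, and no ISRE word in either. The windows of Irf7 and Irf9 held neither set of letters. No window held both motifs. A match of letters is a description of the sequence and not a measured binding site.

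The libraries held 178988562 to 352627863 UMIs (unique molecular identifiers, each counting 1 captured transcript) in 96587 to 114357 barcodes, with median UMIs per barcode from 1432 in KO_PBS to 2980 in KO. Between 2.93% and 3.16% of the barcodes of 1 library also occurred in another. Aire itself had 15 UMIs in WT, 27 in KO, and as many as 68 in KO_PBS. It thus did not check the labels, and each direction below is between libraries as labelled. Summed markers of the corneal epithelium were at 39619 UMIs per 1000000 UMIs (CPM) in WT, 25532 in KO and 10708 in KO_PBS, and all 9 were detected in each. KO_PBS stood apart in markers of several other tissues. Lens markers were at 8033 CPM there against 490 in WT and 188 in KO. In the order WT, KO and KO_PBS, melanocyte markers were at 496, 172 and 4238 CPM, photoreceptor markers at 147, 61.9 and 1817, and corneal endothelium markers at 504, 410 and 1816. The gene list of KO_PBS also differed, with 31053 genes against 32285 in WT and in KO, and any effect of that on the ratios of KO_PBS was not tested.

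Member genes were compared as CPM of all barcodes summed. To be counted as higher or lower a gene needed 50 UMIs in the pair of libraries, at least a 2-fold ratio and intervals that did not overlap, which sets a size and tests nothing. In sums over all barcodes, more cells of a type and more RNA per cell cannot be told apart.

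The signalling members of ISGF3 differed from each other. Stat2, a STAT used mainly by the type I and III routes, was at 13.2 CPM in WT, 94.7 in KO and 86.3 in KO_PBS, on 3389, 33275 and 15341 UMIs. The WT library was low and the knockout libraries were close to each other, with KO at 7.15 times WT (6.90 to 7.41). Irf9, the DNA-binding subunit, was at 38.3 CPM in WT, 78.4 in KO and 88.8 in KO_PBS. Its KO ratio of 2.05 (2.00 to 2.10) only just met the 2-fold rule.

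Irf7, the factor that amplifies type I interferon transcription, was at 61.2 CPM in WT, 194 in KO and 304 in KO_PBS. It was the member whose level was most above KO in KO_PBS, by 1.57 times (1.55 to 1.58).

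The effectors of the type I route included the largest ratios. Ifit3, an RNA-binding antiviral protein of the Ifit family, was at 7.39 CPM in WT, 114 in KO and 78.9 in KO_PBS, on 1891, 39962 and 14029 UMIs. Ifit1, which binds viral RNA caps, was at 15.6, 209 and 234 CPM in the same order. Ifit2, the least counted of the family, was at 2.79, 23.7 and 18.6 CPM. The KO library lay above WT for each of these genes, by 15.4 times for Ifit3 (14.7 to 16.1), 13.4 times for Ifit1 and 8.51 times for Ifit2 (7.89 to 9.20). Reads of Ifit3 may be split with its near-identical paralog Ifit3b, which was at 15.6, 79.0 and 127 CPM. Both summed were at 23.0 CPM in WT, 193 in KO and 205 in KO_PBS, which is 8.39 times WT in KO (8.17 to 8.62), so the place of Ifit3 above Ifit1 depends on how reads were split. Isg15, a ubiquitin-like modifier, was at 257 CPM in WT, 992 in KO and 1141 in KO_PBS, 3.85 times WT in KO (3.82 to 3.89).

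The type II members did not share 1 pattern. Irf1, a transcription factor that drives antigen presentation genes, was at 85.4 CPM in WT, 158.5 in KO and 205 in KO_PBS. Its KO ratio, 1.86 (1.83 to 1.89), was the smallest of the 9 and was below the rule's 2-fold. Socs1, the inhibitor of Janus kinases that ends the signal, was at 3.66 CPM in WT, 29.4 in KO and 16.7 in KO_PBS, on 936, 10318 and 2962 UMIs. Its KO ratio was 8.03 (7.51 to 8.59), close to that of Ifit2, and in KO_PBS it was at 0.57 of KO (0.54 to 0.59).

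**Figure D1:**
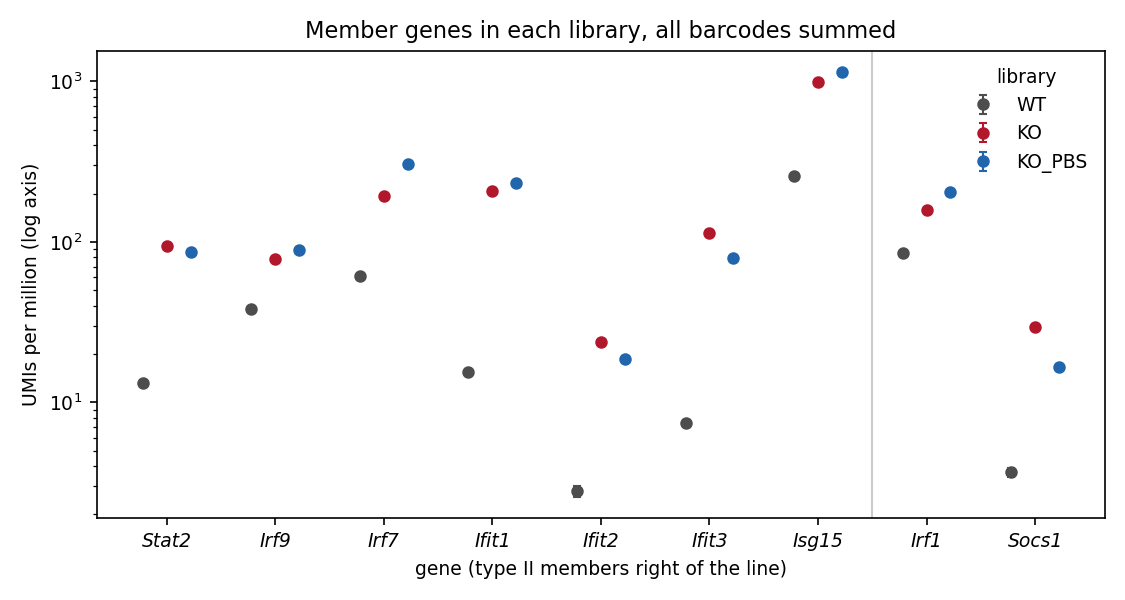
Level in CPM (log axis) of each member in the WT, KO and KO_PBS libraries, all barcodes summed; points are single libraries and bars exact 95% Poisson intervals, mostly smaller than the points. Each member was lowest in WT, and Ifit3 went from 7.39 in WT to 114 in KO.

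Between KO and WT, 8 of 9 members were higher by the rule of size and 0 lower, where 20.4% of all 21335 genes tested were higher and 8.86% lower. The median log2 ratio of the members was 2.84, against 0.23 over all genes. Because the median gene itself was shifted, each ratio was also centred on it. Centred, 7 members were higher (15.0% of all genes), Irf9 falling to 1.74-fold, and the member ratios ran from 0.66 for Irf1 to 3.71 for Ifit3 on the log2 scale.

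Between KO_PBS and KO, the median gene was 0.63 higher on the log2 scale, and 0 of 9 members passed the rule in either direction, where 39.9% of 22416 genes were higher and 4.70% lower. Unscaled, 5 members had a ratio above 1 and 4 below. Centred on the median gene, 8 of 9 lay below 0 and Irf7 lay at 0.02. Socs1, at -1.45, and Ifit3, at -1.16, were then counted as lower and 0 as higher (12.9% and 29.9% of all genes). Summed with Ifit3b, Ifit3 was 0.09 above KO, or -0.54 centred, and no longer counted as lower. The direction given for Irf1, Irf9, Ifit1 and Isg15, which were above KO in CPM, therefore turned with the scaling. Summed epithelial markers, which fell from 25532 to 10708 CPM, and markers of lens, melanocytes, photoreceptors and corneal endothelium, which were higher in KO_PBS, moved with this comparison, and their part in it was not tested.

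KO_PBS and WT were furthest apart in scale, with the median gene 1.27 higher in KO_PBS on the log2 scale. In CPM, 9 of 9 members were higher (57.0% of 22138 genes, with 4.06% lower). Centred, 5 were higher (29.6% of all genes): Ifit1 at 2.64, Ifit3 at 2.15, Ifit2 at 1.47, Stat2 at 1.43 and Irf7 at 1.04. Isg15 lay at 0.88 and Socs1 at 0.92, while Irf1 at -0.01 and Irf9 at -0.06 turned sign. This comparison shares the WT library with that of KO and WT, so the ratios of both are not independent.

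**Figure D2:**
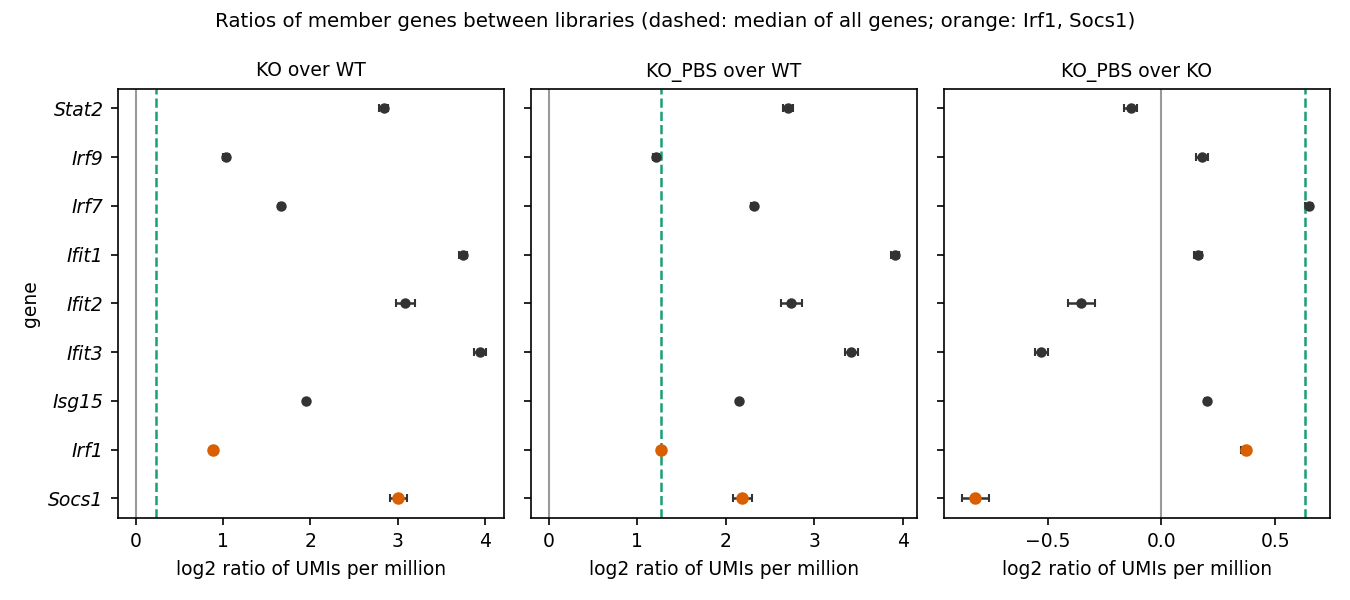
Log2 ratio of CPM for each member in 3 comparisons of libraries, with bars for the 95% counting interval; orange marks Irf1 and Socs1, the dashed line the median of all genes tested and the grey line a ratio of 1. All members lie right of the dashed line at 0.23 for KO over WT, while for KO_PBS over KO only Irf7 lies at the line, at 0.63, and the other members lie left of it.

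The contrast of both routes was taken within each pair of libraries, where the scaling cancels. The mean log2 ratio of KO over WT was 1.95 for Irf1 and Socs1 and 2.88 for Ifit1, Ifit2, Ifit3, Isg15 and Irf7, a difference of -0.93 (-0.99 to -0.87). For KO_PBS over WT the difference was -1.18 (-1.24 to -1.12), and for KO_PBS over KO -0.25 (-0.28 to -0.22). The type II pair lies far apart, so the means stand for neither gene: without Socs1 the differences were -1.99, -1.64 and 0.35, the last with its sign turned. Without Irf7, whose KO ratio was the lowest of the type I members, they were -1.23, -1.33 and -0.09. The contrast used Ifit3 alone and was not taken with Ifit3 and Ifit3b summed. For KO over WT the log2 ratio was 3.94 for Ifit3 and 3.07 for the sum. For KO_PBS over KO it was -0.53 and 0.09. The intervals of the contrast do not cover how these reads were split.

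Set per 100 UMIs of Irf1, which also needs no scaling, the members showed which of them departed from Irf1. Irf9 stayed close to it, with 44.9, 49.5 and 43.3 UMIs in WT, KO and KO_PBS. Ifit1 went from 18.2 in WT to 131.9 in KO and 113.9 in KO_PBS. Ifit3 went from 8.65 to 71.8 and 38.5. Both Ifit genes were thus lower per Irf1 UMI in KO_PBS than in KO, and still above WT. Isg15 had 301.4, 625.8 and 556.4 UMIs per 100 of Irf1, and Stat2 15.5, 59.7 and 42.1. Irf7 alone among the 8 other members had most in KO_PBS, with 71.6, 122.4 and 148.2. Socs1 had 4.28, 18.5 and 8.13. The order of KO and KO_PBS for Irf7 was not the same at all depths. In the deepest of 10 equal groups of barcodes by UMIs, KO_PBS had 9055 UMIs of Irf7 and 8442 of Irf1. KO had 13359 and 10833 there, so Irf7 per Irf1 UMI was lower in KO_PBS. In the shallowest group the UMIs were 3254 and 1607 in KO_PBS and 3425 and 2829 in KO.

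Genes whose pattern over the 3 libraries was most like a member were named by the distance between pairs of log2 ratios (KO over WT and KO_PBS over WT) among 16811 genes with at least 500 UMIs. For Irf1 these were Irgq, Dna2, Gm45902, Tshz1 and Sik2, at distances up to 0.014. For Ifit3 they were Hhex, Fam167a, Cd300c2, Chil1 and Gpr35, at distances up to 0.15. Both ratios share WT, and the likeness is of 3 libraries only.

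The other genes of the pathway are given by role, and each count of genes higher in KO stands against the 20.4% of all genes tested (15.0% centred). Among ligands, 1 UMI of Ifng, the type II interferon, was found in WT, against 453 in KO and 382 in KO_PBS. These were 0.0039 CPM (9.9e-05 to 0.022), 1.29 (1.17 to 1.41) and 2.15 (1.94 to 2.37). Of 20 ligand genes listed, only Ifng and Ifnk reached 50 UMIs over KO and WT, so the other ligands could not be compared between these libraries at this depth. Ifnl3, a type III interferon, had 1, 20 and 30 UMIs, met the minimum for KO_PBS over KO and was higher there, by 1.57 on the log2 scale (0.94 centred, which does not meet the rule). Ifnl2 had 4, 24 and 18 UMIs and Ifnb1, a type I interferon, had 1, 7 and 35. Ifnk, a type I interferon of keratinocytes, had 41, 35 and 7 UMIs, a log2 ratio of -0.69 for KO over WT that did not meet the rule. Of 6 receptor chains, 1 was higher in KO, a share near that of all genes. Ifngr1, the ligand-binding chain for interferon gamma, had a level of 41.4 CPM in WT against 110 in KO and 42.4 in KO_PBS. Its KO level was 2.66 times WT (2.60 to 2.72) and its KO_PBS level 1.02 times WT (0.99 to 1.05). Centred, its KO_PBS ratio to WT was -1.23 on the log2 scale. The other receptors were less apart: Ifnar1 was at 15.3, 24.0 and 25.8 CPM, Ifnar2 at 20.9, 39.8 and 32.5, Ifngr2 at 36.0, 37.5 and 39.2, Ifnlr1 at 5.11, 6.05 and 7.58, and Il10rb at 16.9, 23.2 and 23.3.

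Of 3 Janus kinases, which carry the signal from receptors, Jak2 was higher in KO, at 22.1 CPM in WT, 79.5 in KO and 58.3 in KO_PBS. Jak1 was at 142, 211 and 133 CPM. Of Stat3, Stat4, Stat5a, Stat5b and Stat6, 4 of 5 were higher in KO and the median log2 ratio was 1.49, from 0.87 for Stat6 to 4.74 for Stat4, a STAT of T and NK cells at 0.70, 18.6 and 9.85 CPM. Of the 6 other IRF genes, 3 were higher, from 0.43 for Irf3 to 5.56 for Irf4, a lymphocyte and plasma cell factor at 0.21, 9.98 and 5.43 CPM. Of the 7 other SOCS genes, 4 were higher, from 0.72 for Socs4 to 3.70 for Socs3, which was at 1.77, 23.1 and 22.6 CPM. Centred, 2 of the 7 were higher, as Socs5 at 0.87 and Socs6 at 0.79 no longer met the rule. Of 11 genes of nucleic acid sensing, 9 were higher (8 centred), from 0.17 for Mavs upward. Tlr9, with 2, 107 and 47 UMIs, lay at the other end. Irf1, at 0.89, and Irf9, at 1.03, lay below the median of 1.30 of the other IRF genes, and Irf7 at 1.66 above it.

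The target genes not among the 9 were mostly higher in KO. Of 26 other ISGF3-type genes, 24 were higher by the rule, 1 was lower, 1 was neither and the median log2 ratio was 2.27. Rsad2, an antiviral enzyme, had the largest ratio, at 7.27 CPM in WT, 89.9 in KO and 79.7 in KO_PBS. Ifi27 was the 1 lower gene, at 309, 134 and 158 CPM. Of 24 other interferon gamma-type genes, 24 were higher and the median was 4.66, above the 2.84 of the members. Cxcl9, a chemokine for T cells, was at 0.36 CPM in WT, 203 in KO and 290 in KO_PBS, and Psmb8, an immunoproteasome subunit, had the smallest ratio at 242, 732 and 449 CPM. By their medians the gamma-type list stood above the ISGF3-type list, while among the members the type II mean was below the type I mean. In KO_PBS over KO, 2 of 26 ISGF3-type genes (Ddx60 and Samd9l) and 1 of 24 gamma-type genes (Gbp6) were lower and 0 were higher, where 4.70% of all genes were lower and 39.9% higher. Those 3 were named after their values were seen. Centred, 8 of 26 and 9 of 24 were lower, where 12.9% of all genes were.

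Markers of immune cells moved with KO over WT. T cell markers summed to 14.3 CPM in WT, with 183 in KO, 175 in KO_PBS and 10 of 10 higher in KO. Macrophage markers summed to 96.9, 870 and 822 CPM with 8 of 9 higher, dendritic markers to 2.13, 22.6 and 36.3 with 6 of 6, and B cell markers to 16.4, 115 and 111 with 5 of 6. Plasma cell markers were at 536, 1792 and 442 CPM, and the sum was thus lower in KO_PBS than in WT, although 6 of 7 single markers were higher in KO and 6 of 7 in KO_PBS than in WT. No marker of these lists was at 0 in any library. Keratocyte markers were at 1217, 4093 and 2443 CPM with 8 of 9 higher in KO. The part of these cells in the member ratios was not tested.

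Members were read in barcodes that stood out for a marker list, with at least 4 UMIs of at least 3 markers and at least 5 times the library's share. Such barcodes were few, and 96.2% of WT, 98.9% of KO and 98.8% of KO_PBS barcodes stood out for none of 16 lists. For corneal epithelium the rule picked 0 (WT), 0 (KO) and 1 (KO_PBS). Its summed markers were already at 39619, 25532 and 10708 CPM, in the same order, and 5 times such a share is a high bar. The members were thus not read in a set of epithelial barcodes. A barcode that stood out for no list can still hold epithelial markers. The reference was the low-UMI barcodes of the same library, the lowest 25% by UMIs, whose medians were 1571, 2002 and 976 UMIs. They were not shown to be empty or to hold cells. In WT, 2 of 90 pairs of a member and a marker-rich set were past 2-fold of that reference with intervals apart and, where higher, at least 10 UMIs. In KO, 0 of 81 were, and in KO_PBS 2 of 90. Over all genes with at least 50 UMIs in the low-UMI barcodes, 2.56%, 1.87% and 8.97% of such pairs were in WT, KO and KO_PBS. The WT pairs were Ifit3 in melanocyte-marker barcodes, at 15.6 CPM against 7.18 on 21 UMIs, and Ifit1 in those of retinal pigment epithelium markers, at 53.6 against 15.8 on 12 UMIs. The KO_PBS pairs were Stat2 in T cell-marker barcodes, at 168 CPM against 74.5 on 15 UMIs, and Irf7 in those of retinal pigment epithelium markers, at 161 against 360. These sets were deeper than the reference, with medians of 2817 and 2524 UMIs. In the deepest of 10 equal groups of KO_PBS barcodes, Stat2 was at 108 CPM, inside its marker-rich interval (94.0 to 277). Irf7 was at 258 CPM in that group, above its marker-rich interval (122 to 208).

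In 286 plasma cell-marker barcodes of KO, Ifit1 was at 0.66, Irf1 at 0.71, Ifit3 at 0.71 and Isg15 at 0.73 of the reference, with intervals apart. The other members also lay below it, with intervals that overlapped. No member was past 2-fold, and the share of all genes with intervals apart was not taken, so this is not shown to be particular to the members. In 52 macrophage-marker barcodes of KO, Isg15 was at 909 CPM (776 to 1059) against 988, Ifit1 at 215 (153 to 294) against 224, and Irf1 at 209 (148 to 287) against 159, and each interval held its reference. In 53 of KO_PBS, Isg15 was lower, at 775 CPM (639 to 931) against 1173. Irf1, at 279 (200 to 378) against 180, and Stat2, at 136 (83.0 to 210) against 74.5, had intervals above their reference, and so had Ifit2 on 6 UMIs, too few for the call, at 40.8 (15.0 to 88.8) against 12.99, while Ifit1 at 245 (171 to 339) against 225 and Ifit3 at 68.0 (32.6 to 125) against 74.5 did not. These 53 barcodes had a median of 2602 UMIs, and in the deepest of 10 equal groups of KO_PBS barcodes, with a median of 2713, Irf1 was at 241 CPM, Stat2 at 108 and Ifit2 at 23.9, each inside the macrophage-marker interval. Irf1 was also above the reference, with intervals apart, in barcodes rich in vessel, T cell and B cell markers of KO_PBS. Their medians were 2596, 2817 and 2969 UMIs. The 241 CPM of Irf1 in the deepest group lay inside each of their intervals (207 to 350, 190 to 426 and 216 to 451). The share of all genes with intervals apart in these sets was not taken.

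Members were also compared between libraries within marker-rich barcodes. Since their levels there lay mostly near those of the low-UMI barcodes of the same library, these ratios are not independent of the ratios of whole libraries. In those of the corneal endothelium, the pump layer behind the stroma, 538 barcodes of WT, 303 of KO and 388 of KO_PBS were found. Of 7 members with enough UMIs there, KO exceeded WT in 7 by the rule, and KO_PBS exceeded WT in 7, where 15.2% and 39.4% of all genes tested in these barcodes did. Ifit1 was at 14.0 CPM in WT, 220 in KO and 225 in KO_PBS, and Irf1 at 63.6, 142.7 and 169.5. The sets were led by 5 endothelial markers among 10 leading genes in WT and in KO but by 2 in KO_PBS. Isg15 in KO_PBS was at 635 CPM there against 1173 in the low-UMI barcodes, and Stat2 at 124 against 74.5, so the members did not follow the reference of that library together. There were 1373 keratocyte-marker barcodes in WT, with 64 in KO and 6 in KO_PBS. The cut moves with each library's own share of the markers, which was 1217 CPM in WT, 4093 in KO and 2443 in KO_PBS. Counts of marker-rich barcodes are thus not numbers of cells, and the sets compared were picked at unlike levels. In keratocyte-marker barcodes, 6 of 7 members were higher in KO than in WT, where 9.10% of all genes tested were. Irf9, at 1.78 times (0.95 to 3.07), was the exception. In lens-marker and in photoreceptor-marker barcodes 6 of 7 were higher as well, where 15.0% and 14.9% of all genes were. Irf1 did not meet the rule in either, at 1.78 times WT (1.35 to 2.32) and 1.54 times (1.10 to 2.16). The 50 UMIs were counted over both libraries, so a member low in WT could enter through its UMIs in KO or KO_PBS. In photoreceptor-marker barcodes Ifit3 had 5 UMIs in WT and 68 in KO, and Stat2 had 11 and 53. Some members were thus counted only because they were high in a knockout library, and these counts do not test a direction.

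**Figure D3:**
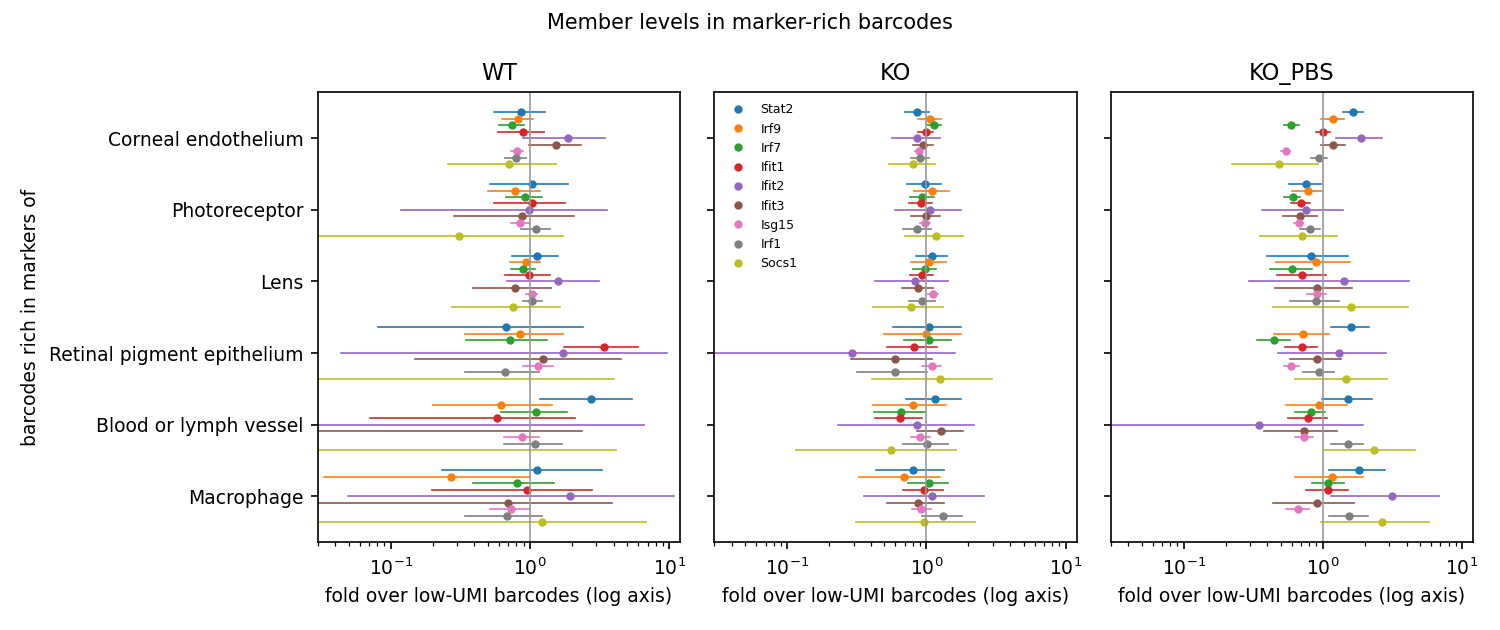
Level of each member in barcodes rich in markers of 6 tissues or cell types, divided by the level in the low-UMI barcodes of the same library (log axis); points are library values and lines 95% Poisson intervals of the marker-rich level, drawn from 0.03 upward, with no point at 0 UMIs. Most lines cross 1 in KO, and in KO_PBS corneal endothelium Isg15 lies at 0.54.

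Across depth the levels of the members spread more widely in KO_PBS than in WT and KO. Barcodes were split into 10 equal groups by their UMIs, and the top group was divided by the bottom. In WT the 9 ratios ran from 0.89 for Ifit2 to 1.16 for Irf1, where the 5th and 95th percentiles of 10770 genes were 0.85 and 1.32. In KO they ran from 0.85 for Ifit2 to 1.09 for Socs1, where the 5th and 95th percentiles of 12504 genes were 0.87 and 1.22. In KO_PBS they ran from 0.71 for Irf7 to 1.98 for Ifit2. Irf7 went from 364 CPM in the shallowest group to 258 in the deepest, and Isg15 from 1174 to 989. Ifit2 went the other way, from 12.1 to 23.9 CPM, as did Stat2 from 74.6 to 108 and Irf1 from 180 to 241. The ratios of the other 4 members there were 1.03 for Ifit3, 1.05 for Ifit1, 1.14 for Irf9 and 1.15 for Socs1. The percentiles over 12655 genes of KO_PBS were wider, 0.69 and 2.38, with a median of 1.21, so these members lay within the range of other genes.

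**Figure D4:**
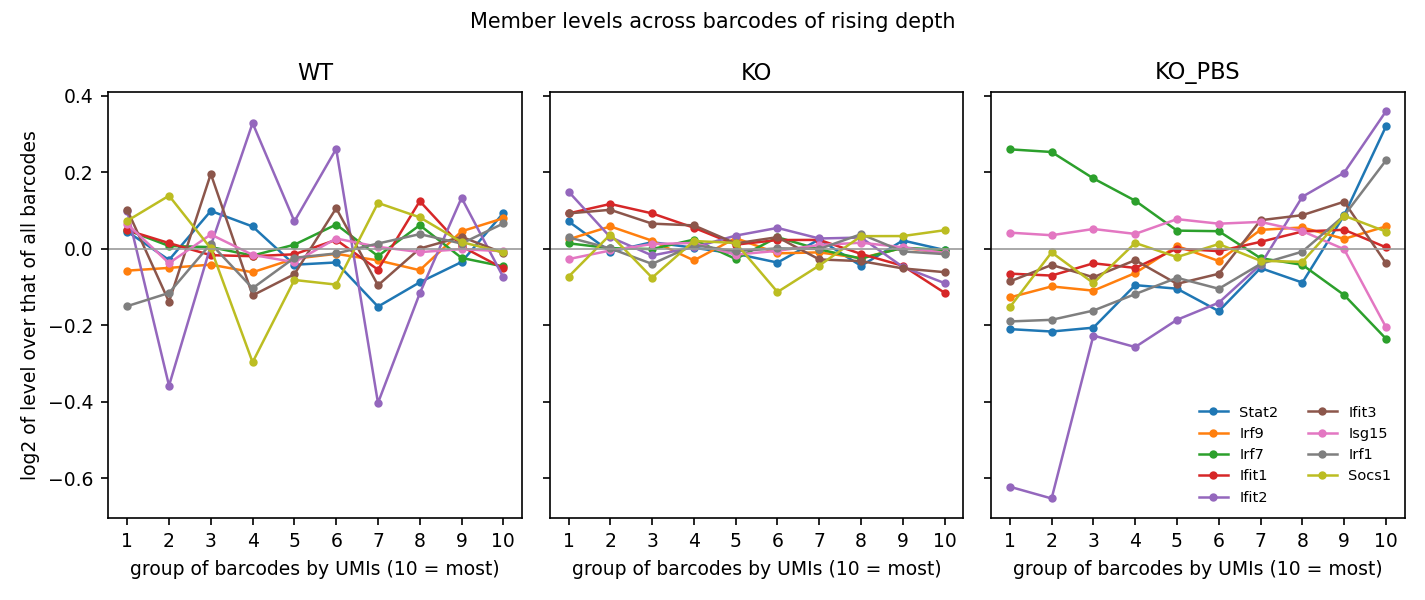
Log2 of the level of each member in 10 equal groups of barcodes ordered by UMIs, relative to its level in all barcodes, in each library; lines join groups and no error is drawn. In KO_PBS Irf7 falls from 364 to 258 CPM from the shallowest to the deepest group while Ifit2 rises from 12.1 to 23.9, and the wide swings of Ifit2 in WT rest on 713 UMIs in all.

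The spread of each member over the barcodes of a library was then read. A dispersion index was taken as the mean over barcodes of the squared deviation divided by the expected count, which is 1 when UMIs follow depth alone. Isg15 was at 1.31 in WT, 1.22 in KO and 1.19 in KO_PBS, each above the 95th percentile of genes (1.11, 1.09 and 1.11). Irf7 was at 1.12 in KO_PBS and 1.04 and 1.02 in the others. Irf1 was at 1.05, 1.02 and 1.07. The remaining 6 members lay between 0.95 and 1.05. Krt12, the keratin of corneal epithelium, was at 2.67, 2.39 and 1.63, at far higher levels of 26026, 13743 and 6164 CPM. The index rises with a gene's UMIs per barcode, so a gene with few UMIs lies near 1 even where it is clustered. Values of genes of unlike level therefore cannot be compared, and an index near 1 does not show an even spread.

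Single barcodes with excess Isg15 were then picked, with at least 4 UMIs, at least 2 times the library's share and a Poisson tail below 1e-06. There were 65 in WT, 41 in KO and 62 in KO_PBS, 0.067%, 0.038% and 0.054% of barcodes (174, 152 and 134 at a tail of 1e-04, where KO_PBS had the fewest), with medians of 4237, 4835 and 3231 UMIs, which is above the library medians. Isg15 chose them and is not a result there. Other type I members were also high in them. Ifit1 was at 107 CPM in WT (75 to 149) against 15.5 in the library, 363 in KO (287 to 454) against 208, and 886 in KO_PBS (767 to 1017) against 232. Ifit3 was at 45.9 against 7.36 in WT and 219 against 113 in KO, but in KO_PBS its 96.9 CPM (60.7 to 146.7) did not separate from 78.4. Irf7 was at 3.72, 1.88 and 2.61 times the library in WT, KO and KO_PBS.

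Irf1, of the type II members, was high in the same barcodes, at 367 CPM in WT (305 to 439) against 85.1, 303 in KO (234 to 386) against 158 and 850 in KO_PBS (735 to 979) against 204. It had a UMI in 44 of 65, 30 of 41 and 55 of 62 of them. Socs1 had 0, 10 and 7 UMIs, too few to compare. Ifit2 had 4, 3 and 3 UMIs, also too few. Stat2 and Irf9 lay between 0.74 and 2.01 times the library. Of all genes with at least 5 expected UMIs, 4.21%, 2.66% and 8.21% were at 2-fold or more in these sets.

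The lists of other targets separated in these barcodes. The 26 ISGF3-type genes summed to 3.34 times the library in WT (3.14 to 3.54), 1.87 in KO (1.77 to 1.98) and 4.01 in KO_PBS (3.85 to 4.17). The 24 gamma-type genes summed to 2.40 (2.15 to 2.66), 1.13 (1.05 to 1.22) and 1.38 (1.29 to 1.48). Rsad2 was at 441 CPM in WT against 7.24, with 144 UMIs in 24 barcodes and 36 of them in 1 barcode. Among the 6 genes with the largest fold in each library, Lce3a, a gene of the cornified envelope, was the one present in all 3, at 1066 against 90.0 CPM in WT, 694 against 38.7 in KO and 4067 against 315 in KO_PBS, and Prss22, a serine protease, was at 447 against 54.0 in KO and 3578 against 284 in KO_PBS. In KO_PBS Slfn4, a Schlafen family gene, led at 1044 CPM against 42.0. These genes, ranked by the fold with 20 CPM added to both levels, were chosen after their values were seen. Krt12 was at 28429, 17240 and 6278 CPM, close to the library values of 26026, 13743 and 6164. Marker-rich sets held 1, 0 and 1 of these barcodes.

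**Figure D5:**
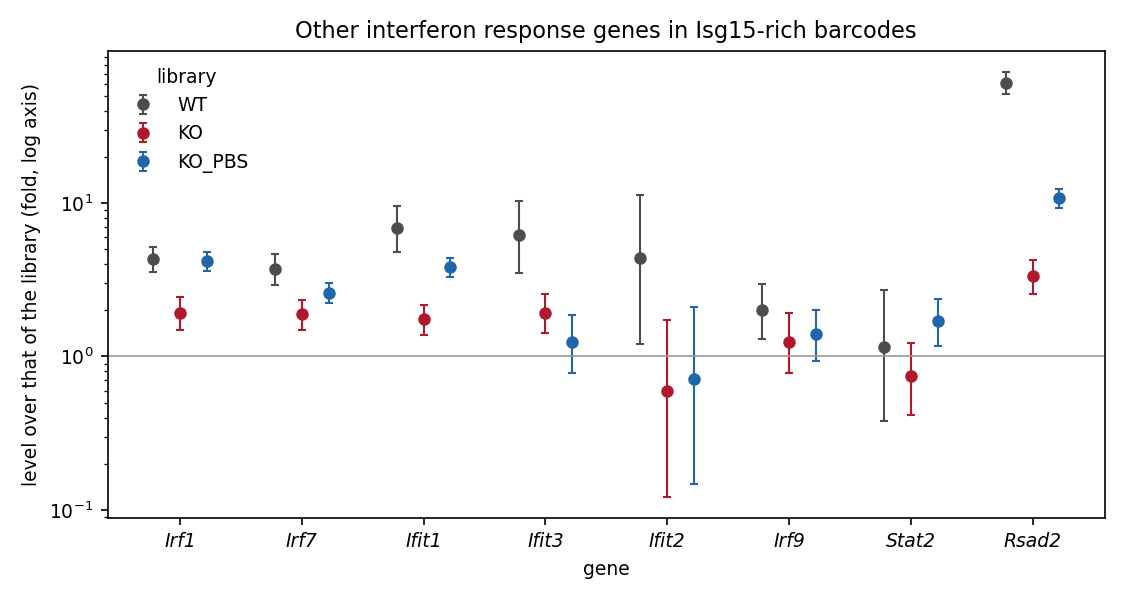
Level of interferon response genes in Isg15-rich barcodes (65 in WT, 41 in KO, 62 in KO_PBS) divided by the level in the whole library (log axis), with 95% Poisson intervals. Irf1, Irf7 and Ifit1 lie above 1 in each library, Irf1 at 4.32, 1.92 and 4.18, and Rsad2 lies highest at 60.9, 3.33 and 10.7.

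Excess of the 3 Ifit genes together was found in 4 barcodes of WT, 1 of KO and 12 of KO_PBS (9, 8 and 44 at a tail of 1e-04). At the first tail, 1, 0 and 2 of them were also Isg15-rich. The cut moves with a gene's share in each library, so counts of barcodes rich in unlike genes cannot be compared. In the 12 of KO_PBS the ISGF3-type list was at 5.24 times the library (4.91 to 5.58) and the gamma-type list at 3.15 (2.90 to 3.43). Of all genes with at least 5 expected UMIs there, 14.9% were at 2-fold or more and the 95th percentile was 3.18. The ISGF3-type list holds Ifit3b, whose reads may be split with Ifit3, a gene that chose the Ifit-rich barcodes. The list without Ifit3b was not taken. Rsad2 was found in 12 of 12, with 130 UMIs and 1897 CPM against 79.2, and 50 of those UMIs in 1 barcode. Irf1 was at 511 CPM (356 to 710) against 204 and Irf7 at 949 (732 to 1209) against 302. The 4 WT barcodes held 34 UMIs of Rsad2, 26 of them in 1 barcode. Their ISGF3-type list, which includes Rsad2, was at 5.28 times the library (4.27 to 6.46) and without it at 3.39 times (2.59 to 4.37), and their gamma-type list at 1.77 (0.99 to 2.92). Barcodes rich in Irf1 numbered 5, 0 and 15, though 28, 6 and 68 at a Poisson tail of 1e-04 and 1, 0 and 5 at 1e-08. The 15 of KO_PBS held both lists at near levels, 2.65 (2.43 to 2.89) for ISGF3-type and 2.73 (2.50 to 2.97) for gamma-type genes, where 10.6% of all genes were at 2-fold or more and the 95th percentile was 2.92. Barcodes rich in Irf7 numbered 1, 0 and 2 (5, 3 and 31 at 1e-04), and the WT one held 60348 UMIs.

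The members' loci, from GENCODE M21 on GRCm38, put the Ifit genes on chromosome 19. Ifit2 spans chr19:34550694-34576419, Ifit3 chr19:34583531-34588731 and Ifit1 chr19:34640871-34650009, all on the plus strand. Isg15 lies at chr4:156199424-156200818 and Irf7 at chr7:141262706-141266481, both on the minus strand, and Stat2 at chr10:128270559-128292849. Irf1 lies at chr11:53770014-53778374 and Socs1 at chr16:10782240-10785536 on the minus strand. Irf9 lies at chr14:55603571-55610030 and overlaps Rnf31 by 123 bases on the same strand. Irf7 overlaps Phrf1 by 45 bases and Irf1 the antisense gene Gm17334 by 907 bases, which was listed for KO_PBS, where it had 20 UMIs against 36450 of Irf1. Reads of overlapping genes may be split.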

How the data were processed

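For each of 3 libraries, the authors deposited raw UMI counts of genes in barcodes, as whole numbers. Cell Ranger 7.0.1 and build mm10 are named in the submitters' processing notes, while the annotation, the barcode filter and whether intronic reads were counted are not given in the sources used here. Genes were joined by Ensembl ID over the 30406 common to every list (32285 genes in WT and KO, 31053 in KO_PBS), which held 99.6%, 99.6% and 99.3% of the UMIs. UMIs of all barcodes were summed per library, with no doublet removal, and scaled to the UMIs of shared genes. Levels in marker-rich barcodes were scaled to the shared-gene UMIs of those barcodes, and levels in member-rich barcodes to all of their UMIs. Ratios have exact conditional intervals, and counts below 3 were set to 3 in ratios. Tables were made with python 3.11.15, numpy 2.4.6, scipy 1.17.1 and pandas 2.3.3. The rule of size and the rule for marker-rich barcodes were run on simulated counts, and the rule for member-rich barcodes was not.

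Named genes were the 9 members, Ifng, the receptors, the largest and smallest KO over WT ratio of each pathway list and the 5 genes nearest to Irf1 and to Ifit3; 1 further gene of that rule is not reported here. Other genes were named after their values were seen. Members and lists were chosen with earlier results of these data known. For marker-rich barcodes, a 10-fold share, at least 8 marker UMIs and keeping barcodes of several lists were tried. The rule for member-rich barcodes and its alternatives (Poisson tails of 1e-04 and 1e-08) were chosen after seeing the data, as were the depth groups, the dispersion index, the sum with Ifit3b and the list without Rsad2.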

Additional observations from a re-analysis of the deposited data

How the results depend on the processing

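No paired analysis was possible because each group is 1 library. Keeping barcodes with at least 500 genes and at most 5% mitochondrial UMIs, or leaving abundant gene classes out of the total, changed no count of members called and no member's direction. With a 4-fold rule 5 members were higher in KO and 7 in KO_PBS than in WT. The share of all genes at 4-fold was not taken, so these counts cannot be set against other genes. Centred on the median gene, 2 members were lower in KO_PBS than in KO and 5 were higher in KO_PBS than in WT, where Irf1 (-0.0059) and Irf9 (-0.057) turned sign. The difference of type II minus type I members without Socs1 was -1.99 for KO over WT, 0.345 (turned) for KO_PBS over KO and -1.64 for KO_PBS over WT. Without Irf7 it was -1.23, -0.0941 and -1.33. In the 25% of barcodes with the fewest UMIs it was -1.05 for KO over WT and -1.31 for KO_PBS over WT. Marker-rich pairs past 2-fold numbered 2 in KO with at least 8 marker UMIs and 4 in KO_PBS with barcodes of more than 1 list kept. The shares of all genes at these settings were not taken. At Poisson tails of 1e-04 and 1e-08, WT held 174 and 35 Isg15-rich barcodes, KO 152 and 20, and KO_PBS 134 and 40, and Ifit-rich ones numbered 9 and 1, 8 and 0, and 44 and 5. Irf1-rich ones numbered 28 and 1, 6 and 0, and 68 and 5, and Irf7-rich ones 5 and 1, 3 and 0, and 31 and 1. Added after seeing the data, the sum of Ifit3 and Ifit3b gave log2 ratios of 3.07 for KO over WT, 0.0924 (turned) for KO_PBS over KO and 3.16 for KO_PBS over WT. Without Rsad2 the ISGF3-type list in Isg15-rich barcodes was at 2.90, 1.83 and 3.80 times the library in WT, KO and KO_PBS. Causes were not tested. Few UMIs limit the precision in small marker-rich and member-rich sets.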
